A study of Homo sapiens with 22 samples.

Results

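Acetylation of lysine 27 of histone H3 (H3K27ac) was mapped by CUT&Tag, in which an antibody brings a transposase to the modified nucleosomes of isolated nuclei so that the DNA around them is cut, tagged and sequenced. AN3CA, a long-established cell line from a human endometrial carcinoma, was used, and the comparison was between cells expressing wild-type ARID1A (WT, 1 library) and cells carrying the empty vector control (Empty, 2 libraries, replicates 1 and 2). All H3K27ac peaks of these 3 libraries on chromosomes 1 to 22 entered: 49682 in WT, 35429 in Empty replicate 1 and 90766 in Empty replicate 2, in hg19 coordinates. The 3 libraries belong to a set of 22, which also cover SMARCA4 and SMARCC1 in the same cells and 4 altered forms of ARID1A with 1 library per antibody each: an ARID domain mutant (DBDmut), the truncations delIDR1 and CBR, and a hybrid with an intrinsically disordered region named for DDX4. The labels do not say how the constructs were delivered, at what level they were expressed or whether libraries came from separate cultures, and the 3 H3K27ac lists hold no measure of ARID1A itself.

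H3K27ac is laid down by the acetyltransferases p300 and CBP and marks active promoters and active enhancers. ARID1A is a DNA-binding subunit of the canonical BAF (SWI/SNF) remodelling complex, which opens chromatin by moving or evicting nucleosomes and is known to work largely at enhancers. SMARCA4 is the ATPase of the complex and SMARCC1 a core scaffold subunit, so peaks of either are called BAF peaks below. ARID1A is among the genes most often mutated in endometrial carcinoma.

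The libraries were of unequal depth. The lowest background behind a peak was 0.646 fragments in WT, 0.431 in Empty replicate 1 and 2.02 in Empty replicate 2, which gave an estimated 4.48, 4.40 and 14.5 fragments per kb. The shortest peaks, which stand in for fragment length, were 144, 98 and 139 bp. WT and Empty replicate 1 carried the same stamp at the start of their peak names and Empty replicate 2 another, and the labels do not say what the stamp is. Peaks covered 20.2 Mb in WT, 10.4 Mb in Empty replicate 1 and 36.6 Mb in Empty replicate 2.

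The first question was how much of the acetylation of WT cells had no counterpart in cells with the empty vector. Of the 49682 WT peaks, 19816 met no peak of either Empty replicate by even 1 bp and are called gained (39.9%, Wilson 95% interval 39.5 to 40.3). Another 19373 met a peak of both replicates and are called shared (39.0%, 38.6 to 39.4). As deposited, 5726 peaks of Empty replicate 1 (16.2%) and 60669 of the long replicate 2 list (66.8%) were absent from both other lists. The remaining WT peaks met replicate 2 only (8948) or replicate 1 only (1545). In the other direction, 27791 peaks of Empty replicate 1 were also present in replicate 2, and 5629 of them (20.3%, 19.8 to 20.7) met no WT peak and are called lost. With 1 WT library there is no test between the conditions, and intervals here and below cover counting error only. Both Empty lists entered these calls: against replicate 1 alone 28764 WT peaks had no counterpart and against replicate 2 alone 21361, and without the requirement that both replicates hold them the lost peaks numbered 11355 in replicate 1 and 64881 in replicate 2. The overlap rule itself placed few peaks close to its edge: 541 of the 29866 WT peaks with an Empty counterpart overlapped it by 50 bp or less, and 198 gained peaks lay within 50 bp of an Empty peak, with a median width of 207 and 213 bp.

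List length and replicate spread bear directly on these shares. Each list was therefore cut to its 35429 strongest peaks by the authors' -log10 p, and each was compared with both others. Of the WT peaks 14046 were then absent from both Empty lists (39.6%, 39.1 to 40.2). The same count was 7699 for Empty replicate 1 (21.7%) and 13137 for Empty replicate 2 (37.1%). WT met both Empty lists with 16957 peaks (47.9%). The intervals of WT and replicate 2 (36.6 to 37.6) did not overlap, but they lay closer to each other than the Empty replicates did, and unlike WT each Empty list had a replicate of its own condition to match. Pairwise, 47.5% of WT peaks were absent from replicate 1 and 44.3% from replicate 2, against 43.5% of replicate 2 peaks absent from replicate 1 and 27.4% of replicate 1 peaks absent from replicate 2. At this list length the gap in unmatched peaks between WT and replicate 2 was smaller than that between the Empty replicates. Of the replicate 1 peaks that replicate 2 also had, 5959 of 25705 were lost at this length (23.2%).

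The libraries differed clearly among their strongest peaks. Of the 1000 strongest WT peaks, 57 met no peak anywhere in the full Empty lists (5.70%, 4.43 to 7.31), and 9.10% had none in replicate 1 alone. Of the 1000 strongest peaks of Empty replicate 1, 2 met none in the full lists of WT and replicate 2 (0.200%, 0.0549 to 0.726). Of those of Empty replicate 2 none did, which allows a share of up to 0.3%, although the lists it was held against were the shorter ones. Among the 5000 strongest the counts were 700 in WT (14.0%), 54 in replicate 1 (1.08%) and 2 in replicate 2 (0.0400%), and among the 10000 strongest 1931, 231 and 89. At 20000 peaks the shares were 25.7%, 5.89% and 10.52%, and at 35429 they were 33.5%, 16.2% and 32.6%. Strong peaks absent from both other lists were thus more frequent in WT than in either control list, while over 35429 peaks replicate 2 came close to WT. These shares are not like for like, since each Empty list was also held against a replicate of its own condition and WT was not. Of the replicate 1 peaks that replicate 2 also had, WT lacked 2.31% among the 1000 strongest of replicate 1. Among its 5000 and 10000 strongest the shares were 3.57% and 5.42%.

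**Figure D1:**
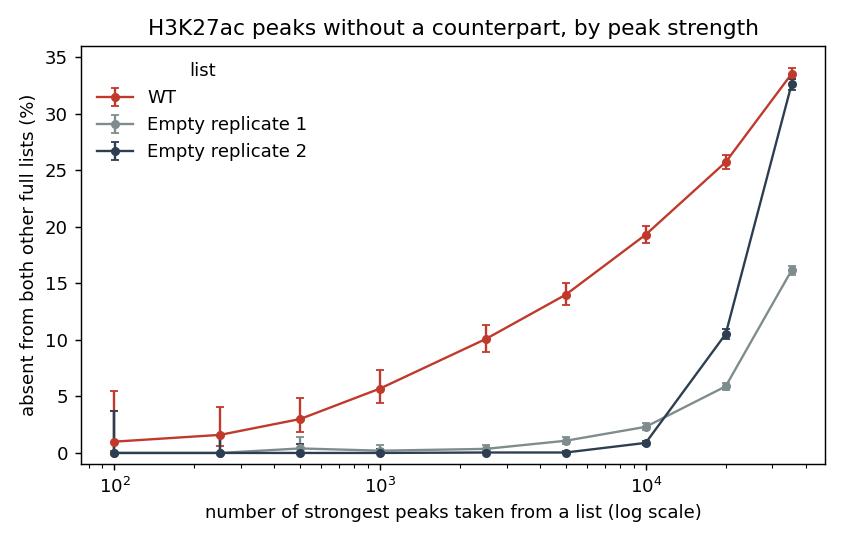
Share of the strongest H3K27ac peaks of each list (vertical axis, percent, with Wilson 95% intervals) that met no peak in the full lists of the other 2 libraries, against the number of strongest peaks taken (horizontal axis, log scale). WT stands at 14.0% for 5000 peaks, where the Empty replicates stand at 1.08% and 0.0400%, and replicate 2 comes close to WT only when 35429 peaks are taken. Each Empty list had a replicate of its own condition among the other 2 libraries, and WT had none.

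The 10 strongest gained peaks stood among the strongest 1000 peaks of the WT list. The first lay on chromosome 10 from 97211488 to 97212143, ranked 67 in the WT list, with 212 fragments at its summit over a local background of 9.85. The nearest Empty peak was 156381 bp away in replicate 1 and 5589 bp away in replicate 2. The second, on chromosome 6 from 3911778 to 3914664, was the widest of all gained peaks at 2887 bp, with 273 fragments over 26.5. The third lay on chromosome 10 from 45476720 to 45477314 with 175 fragments over 11.5, and a replicate 2 peak lay 85 bp from it. The others lay on chromosome 12 from 12972777 to 12973428, from 52585772 to 52586631 and from 109226546 to 109227834, on chromosome 20 from 34463059 to 34464206 (1148 bp wide), on chromosome 7 from 129471168 to 129471939 (772 bp), on chromosome 10 from 93412038 to 93412673 (636 bp), and on chromosome 15 from 40631053 to 40631760 (708 bp). Their distance to a control peak varied: the peak on chromosome 7 lay 915 bp from one of replicate 1 and 792 bp from one of replicate 2, and that on chromosome 15 lay 43205 and 15236 bp away. All 10 carried both SMARCA4 and SMARCC1 in WT and neither in the Empty replicates. All 10 also had acetylation in DBDmut, delIDR1 and DDX4, and 6 had it in CBR. These 10 were not typical of gained peaks. Of all 19816 gained peaks, 13.6% carried both subunits in WT. Acetylation was found at 41.0% of them in DBDmut, 33.1% in delIDR1, 7.56% in DDX4 and 7.73% in CBR. Ranks in the WT list ran from 67 to 348 and summit pileups from 147 to 273 fragments. The 5 strongest shared peaks held ranks 1 to 5 in WT, carried both subunits in all libraries compared, and included a region on chromosome 1 from 121484083 to 121485424, next to the centromere. The others were on chromosome 5 from 10034 to 11765, elsewhere on chromosome 1 from 236260408 to 236260709, and at both ends of chromosome 12, from 95186 to 95735 and from 133841525 to 133841891. Regions prone to artefacts were not masked.

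Gained peaks were narrower and weaker than shared ones. Their median width was 267 bp (quartiles 191 and 414), against 437 bp for shared peaks (278 and 688). The median pileup at the summit was 14 fragments (9 and 24) over a background of 1.46 for gained peaks and 36 (22 and 58) over 4.44 for shared ones. Gained peaks made up 39.9% of WT peaks but 33.0% of the bases under them. Of the 2151 WT peaks wider than 1000 bp, 271 were gained (12.6%, 11.3 to 14.1) and 1727 shared (80.3%).

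The difference in width was smaller among peaks of like strength. WT peaks were divided into 10 bins of equal number by -log10 p, bin 1 being the strongest. In bin 1 the median width was 656 bp for 692 gained peaks and 748 bp for 3880 shared ones. In bin 5 it was 329 and 337 bp, and in bin 10 it was 179 and 187 bp. Gained peaks had the lower median in all 10 bins. At equal list length the medians were 358 and 478 bp.

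Lost peaks were narrower and weaker than kept peaks of the same library, and their widths were not compared at like strength. Measured in Empty replicate 1, where fragments were shortest, their median width was 156 bp (122 and 214) against 281 bp (181 and 450) for the 22162 reproducible peaks that WT kept. Measured in replicate 2, the 4212 peaks that replicate 1 also had and WT lacked were 306 bp wide in the median (203 and 475), and the 17919 kept ones 722 bp (412 and 1083). Widths in different libraries are not set against each other here, since fragment length and depth differed.

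Gained acetylation was less clustered than shared acetylation, and most gained peaks stood alone. Gained peaks no more than 12500 bp apart were joined, which gave 14077 regions from the 19816 peaks. Of these peaks 10365 stood alone (52.3%), 4367 lay in regions of 3 or more (22.04%, 21.5 to 22.6) and 1155 in regions of 5 or more (5.83%). The 19373 shared peaks, nearly the same number, formed 11463 regions. Of these, 35.01% lay in regions of 3 or more (34.3 to 35.7) and 17.4% in regions of 5 or more. There were 8 regions with 10 or more gained peaks and 86 with 10 or more shared peaks. Of the 5629 lost peaks, 6.57% lay in regions of 3 or more lost peaks (5.95 to 7.25), and there was no region of 10. The lost class is smaller, which by itself leaves fewer neighbours to join.

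Clustered gained peaks were the stronger ones. Lone gained peaks had a median pileup of 12 fragments and a width of 256 bp, and those in regions of 5 to 9 had 21 fragments and 307 bp. A WT BAF peak was present at 31.9% of lone gained peaks (31.0 to 32.8) and at 36.6% of those in regions of 5 to 9 (33.7 to 39.5). DBDmut had H3K27ac at 37.1% of the former and 51.6% of the latter, and delIDR1 at 30.4% and 41.4%. CBR had it at 8.35% and 7.31%. In the regions of 10 or more, with 102 gained peaks in all, DBDmut stood at 55.9% (46.2 to 65.1) and delIDR1 at 29.4% (21.4 to 38.9), the latter near its value at lone peaks.

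**Figure D2:**
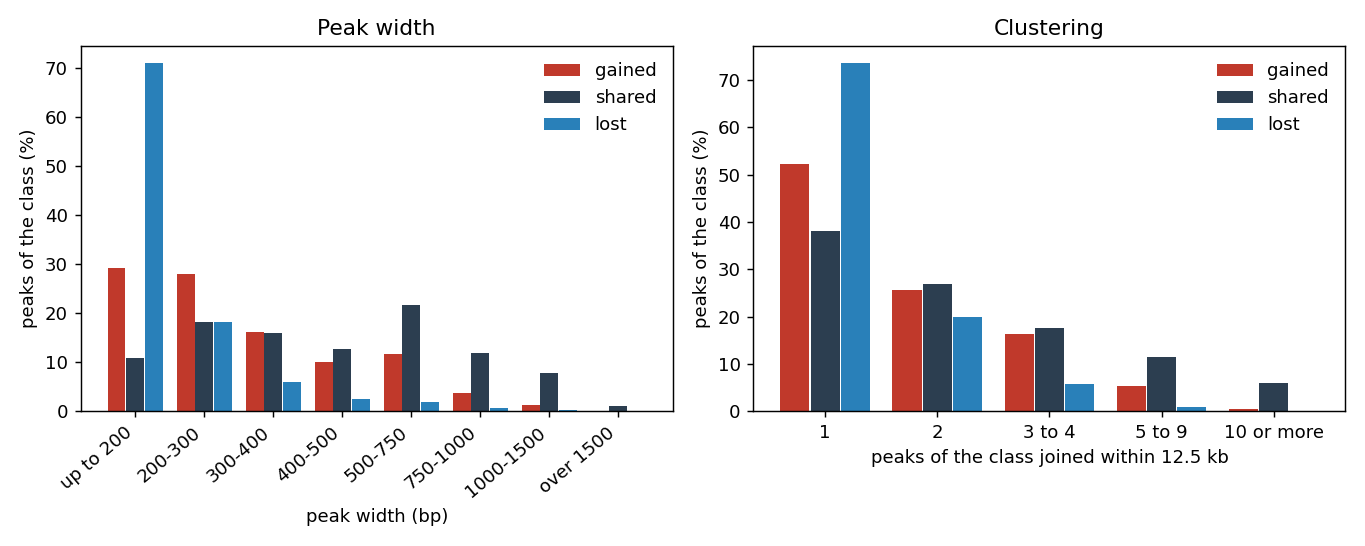
Left, peak width in bp (bins, horizontal axis) of gained and shared WT peaks and of lost peaks as measured in Empty replicate 1, as percent of each class. Right, percent of the peaks of each class that stood alone or were joined with others of their class within 12500 bp, where 52.3% of gained, 38.04% of shared and 73.5% of lost peaks stood alone.

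When all WT peaks were joined in the same way, gained peaks were found both in regions of their own and beside other WT peaks. Empty peaks that met no WT peak did not enter this joining. Of 24252 such regions, 8867 held only gained peaks (36.6%), 4583 held gained and other peaks (18.9%) and 10802 held no gained peak. Among the 5173 regions of 3 or more peaks, 612 consisted of gained peaks alone (11.8%, 10.98 to 12.7), whereas 3052 (59.0%) mixed gained peaks with ones present in an Empty library. In all, 12010 gained peaks (60.6%) lay in regions without any other kind of WT peak. The other 7806 (39.4%) lay in regions with WT peaks that an Empty library also had. A region of gained peaks alone can still lie near an Empty peak that met no WT peak.

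The distance from each gained peak to the nearest Empty peak of either replicate was also taken. Its median was 5452 bp (quartiles 1773 and 14988). Of the gained peaks, 3307 lay within 1 kb of an Empty peak (16.7%), 6179 at 1 to 5 kb (31.2%), 4590 at 5 kb to 12500 bp (23.2%), 4036 at 12500 bp to 50 kb (20.4%) and 1704 farther than 50 kb (8.60%). The farther ones more often carried BAF. A WT BAF peak was present at 21.0% of gained peaks within 1 kb of an Empty peak and at 44.5% of those more than 50 kb away. The first set had a median pileup of 17 fragments and a median width of 233 bp, the second 11 fragments and 289 bp. The sets were not matched for strength by -log10 p. DBDmut had H3K27ac at 36.7% and 49.8% of these sets, delIDR1 at 32.2% and 30.4%, CBR at 9.46% and 3.46%, and DDX4 at 11.9% and 3.11%.

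The region with the most gained peaks spanned 95.9 kb on chromosome 1, from 172853930 to 172949875. It held 25 WT peaks, 22 of them gained, with 11 to 119 fragments at their summits and widths of 153 to 862 bp. Empty replicate 1 had no peak in it and the deeper replicate 2 had 4. BAF peaks of WT met 10 of the 22 gained peaks and BAF peaks of Empty met none. DBDmut had 20 H3K27ac peaks in the region and met 14 of the gained ones, delIDR1 had 9 and met 5, DDX4 had 4 and met 2, and CBR had 3 and met none.

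**Figure D3:**
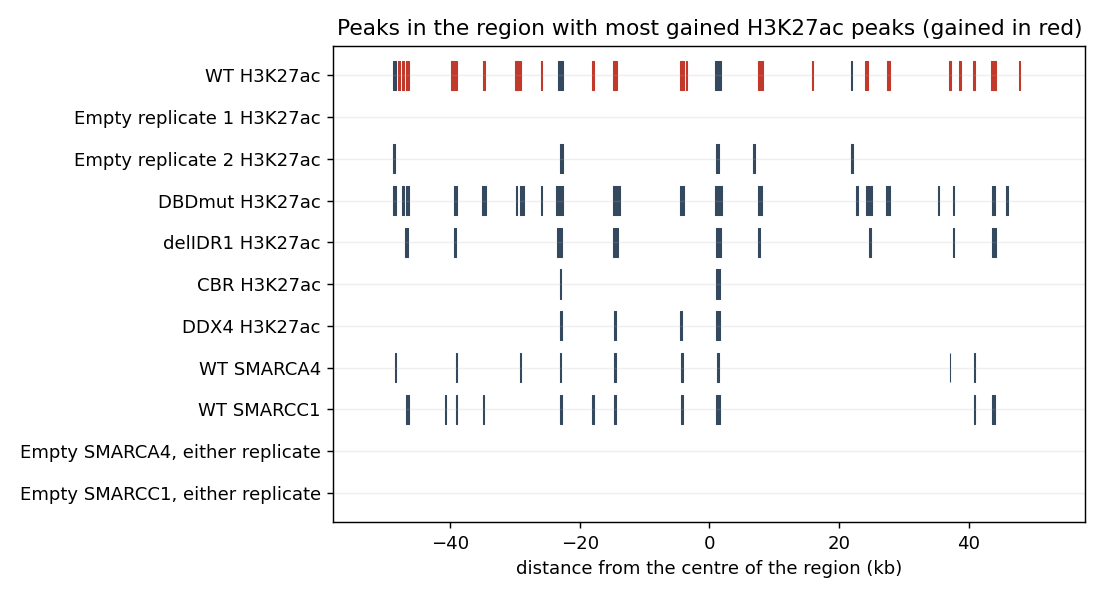
Peaks of each library (1 line per library) in the region with the most gained H3K27ac peaks, by distance from its centre in kb; bars are peaks drawn to scale with a thin outline. The 22 gained WT peaks are in red, Empty replicate 1 has none in the region, and no BAF peak of either Empty replicate falls in the window shown.

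The next regions differed in how bare they were in the controls. A region of 77.2 kb on chromosome 3, from 72279224 to 72356447, held 14 peaks in WT, all gained, and none in either Empty replicate, CBR or DDX4, while DBDmut and delIDR1 had 2 each. A region on chromosome 17 from 15287686 to 15367168 held 13 gained peaks, the widest of 1544 bp, among 8 peaks of Empty replicate 2 and none of replicate 1. On chromosome 6 from 110831010 to 110879761 there were 12 WT peaks, all gained, with up to 105 fragments, where replicate 2 had 1 peak and DBDmut 7. On chromosome 11 from 95823893 to 95896582 there were 11 gained peaks, where replicate 2 had 3 peaks and DBDmut 9.

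BAF subunits were then compared between gained and shared peaks, a readout the classes did not use. Without regard to strength, 33.3% of gained peaks (32.7 to 34.0) and 51.5% of shared peaks (50.8 to 52.2) met a WT SMARCA4 or SMARCC1 peak. Among peaks of like strength the order turned for WT BAF peaks in most bins. In bin 1, 645 of 692 gained peaks had BAF (93.2%, 91.1 to 94.9) and 3505 of 3880 shared ones (90.3%, 89.4 to 91.2). In bin 2 the shares were 84.4% (82.2 to 86.3) and 70.8% (69.2 to 72.3), and in bin 4 52.2% (49.8 to 54.5) and 41.9% (39.9 to 43.8). Gained peaks had the higher share in 9 of 10 bins, and the intervals were apart in bins 2 to 6. In bin 10 the order was the other way, 7.54% (6.65 to 8.54) against 11.8% (9.02 to 15.4). Given the strength distribution of the gained peaks, shared peaks would have had a WT BAF peak at 28.9%, below the 33.3% observed at gained ones. For both subunits together the values were 10.7% and 13.6%, for SMARCA4 12.6% and 17.2%, and for SMARCC1 27.1% and 29.7%. BAF peaks of the Empty cells, described further below, did not enter any of these shares. They met shared peaks at 86.0% in bin 1, 77.2% in bin 2, 58.4% in bin 4 and 20.9% in bin 10. This was below the WT BAF share of gained peaks in bins 1 and 2 and above it in bins 4 and 10. The higher share at gained peaks therefore concerns WT BAF peaks only.

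BAF peaks of the Empty cells were nearly missing from gained acetylation. SMARCA4 or SMARCC1 peaks of the Empty cells met 174 of the 19816 gained peaks (0.878%, 0.757 to 1.02) and 11855 of the 19373 shared ones (61.2%, 60.5 to 61.9). In bin 1 the counts were 6 of 692 and 3337 of 3880. The WT lists hold more BAF peaks, 12720 for SMARCA4 and 23364 for SMARCC1, than the Empty lists, with 5453 and 9210, and 13336 and 15126. Gained peaks with BAF in WT were also wider, with a median of 403 bp against 229 bp without, as were shared ones, with 569 against 333 bp.

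**Figure D4:**
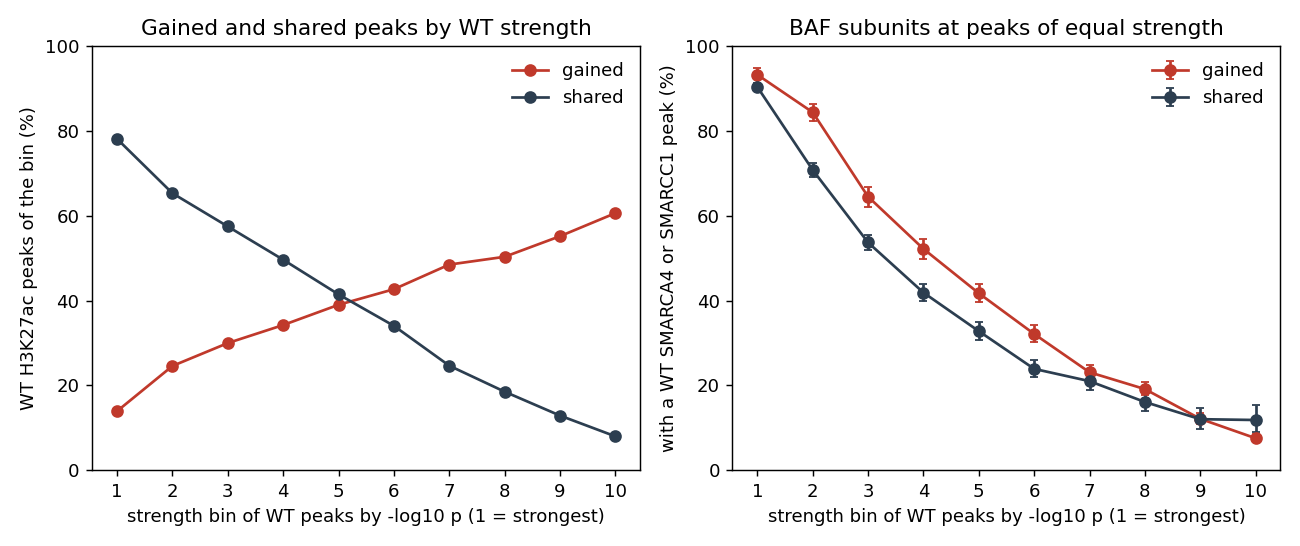
WT H3K27ac peaks in 10 bins of equal number by -log10 p (horizontal axis, 1 is the strongest). Left, percent of each bin that was gained or shared; right, percent of gained and of shared peaks with a WT SMARCA4 or SMARCC1 peak, with Wilson 95% intervals, where gained peaks stand higher in 9 of the 10 bins.

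Acetylation in the 4 altered forms of ARID1A was a further readout that the classes did not use. Of the 19816 gained peaks, 7907 (39.9%, 39.2 to 40.6) had an H3K27ac peak in DBDmut or delIDR1 and in neither CBR nor DDX4, and 654 (3.30%) the reverse. For shared peaks these were 561 (2.90%) and 1398 (7.22%). WT peaks that met Empty replicate 1 only were skewed the same way as gained ones, with 485 (31.4%) and 76 (4.92%). Those that met replicate 2 only were skewed the other way, with 1194 (13.3%) and 2172 (24.3%). The skew was therefore not particular to gained peaks. In all, 9342 gained peaks (47.1%) were found in none of the 4 and 345 (1.74%) in all of them, against 378 (1.95%) and 12173 (62.8%) of shared peaks. These counts are not matched for strength. DBDmut had 41.0% of gained and 87.7% of shared peaks, the latter 72.9% when reweighted to the strength bins of gained peaks. For delIDR1 the values were 33.1%, 77.7% and 57.2%, for CBR 7.73%, 79.6% and 63.1%, and for DDX4 7.56%, 91.6% and 81.9%. Strong gained peaks were seldom missed by DBDmut and delIDR1. In bin 1, DBDmut had 96.2% of gained peaks, delIDR1 91.8%, DDX4 41.2% and CBR 35.4%, while each had at least 97.4% of shared peaks.

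Peaks private to 1 list at equal list length differed in how often these other libraries had them. Of the 14046 peaks private to WT, acetylation was also found at 55.6% by DBDmut, 46.6% by delIDR1, 14.2% by CBR and 13.0% by DDX4. Of the 7699 private to Empty replicate 1 the shares were 20.8%, 17.7%, 7.59% and 15.5%. Of the 13137 private to Empty replicate 2 they were 12.6%, 7.65%, 37.3% and 29.9%. A BAF peak of the same cells was present at 46.2% of the WT private peaks, 4.64% of those of replicate 1 and 8.98% of those of replicate 2. DBDmut and delIDR1 thus had the larger shares at peaks private to WT, and CBR and DDX4 at peaks private to replicate 2. WT, Empty replicate 1 and 3 of the forms (all but DDX4) carried the same stamp.

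Sites present in all 3 libraries were examined for changes in strength. At 11379 sites there was exactly 1 peak per list, and these were ranked by -log10 p within each list, so that ranks run over the same sites. WT stood above both Empty ranks by at least 1138 places at 1692 sites (14.9%) and below both by as much at 1734 (15.2%). Replicate 1 stood above both others by as much at 16.1% of sites and replicate 2 at 20.5%, and they stood below both at 15.0% and 17.4%. WT did not move more sites than both Empty replicates in either direction. The sites differed in BAF. A WT BAF peak was present at 61.5% of the sites that stood higher in WT, 38.1% of those that stood lower, 34.3% of those higher in replicate 1, 46.5% of those higher in replicate 2 and 52.7% of all. It was present at 58.5% of the sites that stood lower in replicate 1 and 56.7% of those lower in replicate 2, close to the value for sites higher in WT. Median widths at these sites were 394 bp in WT, 294 bp in replicate 1 and 546 bp in replicate 2, so WT lay between the controls.

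Some of these sites changed greatly. On chromosome 3 from 48081277 to 48081866 the WT peak had 135 fragments and rank 212 of 11379, while the Empty peaks had 10 and 19 fragments and ranks 10766 and 10725. On chromosome 1 from 43938227 to 43938855 there were 107 fragments in WT and 7 and 13 in Empty, and on chromosome 7 from 6116752 to 6117370 there were 116 against 14 and 26. In each of these the WT value was far above both controls, including the deeper one, and a WT BAF peak was present. In the other direction, a site on chromosome 2 from 98885844 to 98886051 had 8 fragments in WT and 88 and 98 in Empty, and a WT BAF peak lay there. A site on chromosome 3 from 128614798 to 128614967 had 11 against 76 and 116, and one on chromosome 7 from 123903607 to 123903764 had 9 against 63 and 94.

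Lost acetylation was mostly weak. Among the 1000 strongest peaks of Empty replicate 1, 997 were present in replicate 2 and 23 of these were lost in WT (2.31%, 1.54 to 3.44). The share rose to 5.42% of the reproducible peaks among the 10000 strongest and 20.3% over the whole list. Lost peaks often lay near a WT peak of any class: 38.9% were within 1 kb of one and 76.9% within 12500 bp, with a median gap of 2238 bp. Requiring that no WT peak lay within 1 kb left 3441 lost peaks.

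BAF peaks of Empty replicate 1 were scarcer at lost peaks than at kept ones of the same strength. In the strongest of 10 bins of replicate 1 peaks, 35 of 117 lost peaks (29.9%, 22.4 to 38.7) and 2611 of 3379 kept peaks (77.3%, 75.8 to 78.7) met a BAF peak of the same replicate. The lost share was the lower one in all 10 bins, down to 6.06% against 13.8% in the weakest. In the altered forms, lost peaks had H3K27ac at 46.1% in DDX4, 35% in CBR, 30.7% in DBDmut and 20.6% in delIDR1, against 92.0%, 78.0%, 87.6% and 76.5% for kept peaks. Unlike the BAF shares, these were not matched for strength. The median -log10 p was 10.2 for lost and 18.2 for kept peaks.

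The strongest lost region lay on chromosome 6 from 38305873 to 38306407, with 115 fragments in Empty replicate 1 and 67 in replicate 2, and the nearest WT peak 65626 bp away. A second was on chromosome 10 from 43876253 to 43876618, with 115 and 117 fragments. Further ones were on chromosome 8 from 17383019 to 17383597, with 114 and 65, on chromosome 14 from 57075391 to 57076157, with 100 and 52, and on chromosome 4 from 165057245 to 165058026, with 99 and 46. The last was 640780 bp from any WT peak. All of the 5 strongest lost regions had H3K27ac in CBR, none in delIDR1 or DDX4, and 1 in DBDmut. All but the region on chromosome 14 had a SMARCA4 peak in Empty replicate 1 and a SMARCC1 peak in replicate 2, so BAF was more frequent at these than among lost peaks of bin 1 at large. None had a BAF peak in WT. The region with the most lost peaks, on chromosome 2 from 149927143 to 149956176, held 7 lost peaks of 116 to 178 bp, and 6 WT peaks lay within it. Others with 5 lost peaks each were on chromosome 1 from 161606133 to 161641576 and on chromosome 8 from 127616029 to 127643041, the latter with 44 to 184 fragments.

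The gained share of WT peaks varied between chromosomes and was lowest on chromosome 19. The share of WT peaks that was gained ran from 34.5% to 45.7% on 21 chromosomes, highest on chromosome 2 (1850 of 4050), and was 21.7% on chromosome 19 (415 of 1916, 19.9 to 23.6). At equal list length chromosome 19 stood at 21.3% and the others at 34.5% to 45.4%. Peaks of chromosome 19 were somewhat stronger, with 13.5% of them in bin 1, but on the other chromosomes peaks of that strength mix were gained at 37.6%. Against replicate 1 alone the gained share was higher, 41.2% on chromosome 19 and 57.9% over all WT peaks, and against replicate 2 alone it was 23.1% and 43.0%. Per Mb, chromosome 19 had 7.02 gained peaks, close to the median of 6.98 over chromosomes, while its 18.6 shared peaks per Mb were the most of any chromosome (median 7.02). Peaks private to Empty replicate 1 were likewise scarcest there, at 6.27% against a median of 16.5%. Those private to replicate 2 were at 61.8%, against a median of 66.4%.

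The lost share did not set chromosome 19 apart to this extent. The lost share of reproducible Empty peaks ran from 17.1% on chromosome 18 to 25.5% on chromosome 21, where 52 of 204 were lost (20.0 to 31.9). Chromosome 19 stood near the low end at 18.1% (16.3 to 20.0). Per Mb it had the most lost peaks, 4.91 against a median of 1.99. Chromosome 17 had the most gained peaks per Mb, 10.3, and chromosome 21 the fewest, 3.18. Chromosome lengths were taken as the highest peak end over the H3K27ac lists.

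**Figure D5:**
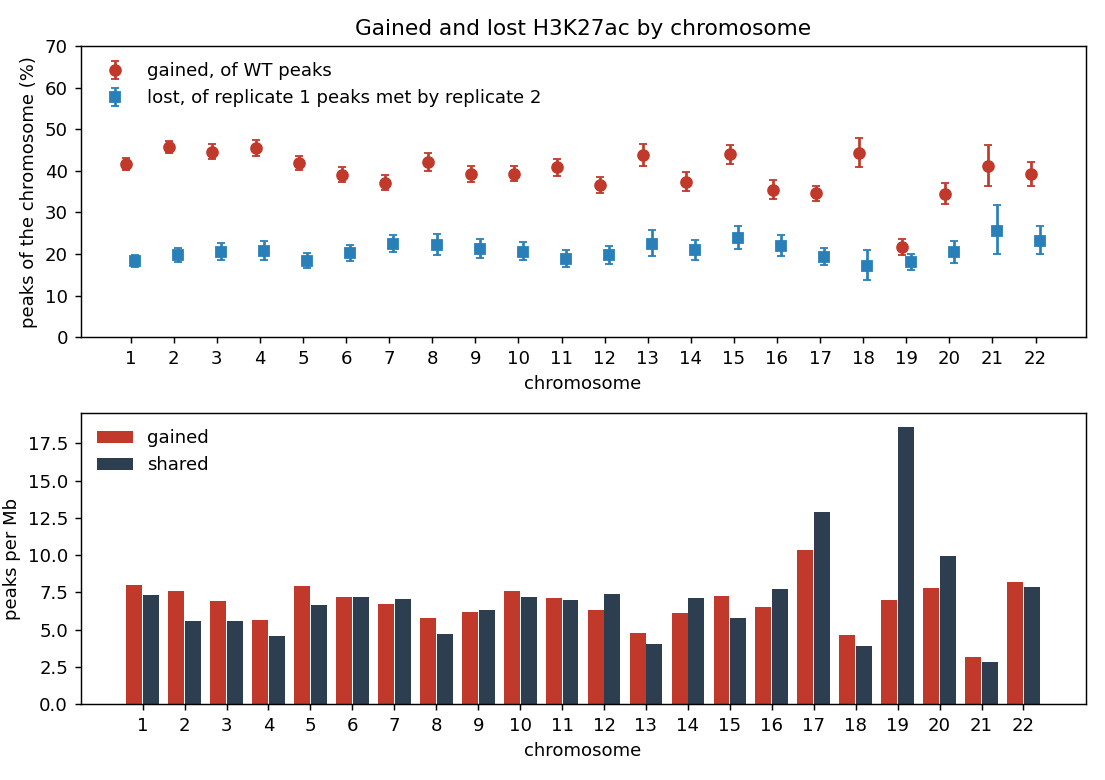
Top, percent of WT peaks gained and of reproducible Empty peaks lost on each chromosome, with Wilson 95% intervals. Bottom, gained and shared peaks per Mb, where chromosome 19 has 7.02 gained and 18.6 shared peaks per Mb.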

How the data were processed

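Sample titles gave the construct and the antibody. Libraries were made by a commercial CUT&Tag protocol with 14 PCR cycles, per the labels' protocols, and the submitters' processing notes name hg19 and bcl2fastq, without a version. How reads were aligned, duplicates treated and peaks called, and against which control, is not given in the sources used here. The authors deposited 1 peak list per library, so replicates were not pooled. From the values, the deposited fold is a ratio of summit pileup to local background, each plus 1. The deposited -log10 p and -log10 q are per peak (lowest -log10 q 2.00 to 2.01 in the H3K27ac lists), and the deposited score is the -log10 q times 10 without its decimals, in all but single peaks. These describe, rank or filter peaks inside 1 list only.

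Overlap was 1 bp or more. Whole summit pileups were recovered from the deposited fold and p-value, taken as a Poisson tail, to within 0.001 in -log10 p for 99.1% of peaks of Empty replicate 1, 99.99% of replicate 2 and nearly all of WT. The lowest background divided by the shortest peak gave fragments per kb, an estimate. Shared shares were reweighted to the bins of gained peaks. Overlap, joining and pileup code was tested on simulated data. Members, lists and comparisons were chosen with earlier results of these data known; the strength bins and the comparison of strongest peaks with full lists were chosen after seeing the data. Regions named were the 10 gained, 5 shared and 5 lost peaks of highest -log10 p (the strongest of any within 12500 bp), the 5 regions with most gained and 3 with most lost peaks, and the 3 single-peak sites with the largest rise and fall in rank. No hg19 annotation or genome was used here, so no gene, promoter or sequence is given. Python 3.11.15, numpy 2.4.6, scipy 1.17.1, pandas 2.3.3 and matplotlib 3.10.9 were used.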

Additional observations from a re-analysis of the deposited data

How the results depend on the processing

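Of 91 values under other settings 43 stayed close to those reported and 48 moved. Close meant within 1.5 times for counts or inside the 95% interval for shares. Changes of direction were not assessed. The order of gained and shared counts varied with the setting. Gained peaks were the more numerous as deposited and at equal number by fold (16461 against 13520). Shared peaks were the more numerous at -log10 q of at least 5 (17229 against 15369) and at equal number by -log10 p (16957 against 14046). With the 10000 strongest peaks per list there were 3510 gained, 5131 shared and 1866 lost peaks. Lost peaks numbered 3676 after joining peaks less than 1 kb apart and 3441 with no WT peak within 1 kb, and taken from a single Empty list without the other 11355 (without replicate 2) to 64881 (without replicate 1), out of 90766 peaks in the latter list. The width of gained over shared peaks, 0.611, was 0.704 at -log10 q of at least 5, 0.749 and 0.643 at equal number by -log10 p and by fold, 0.836 for 10000 peaks, 0.594 for 50% overlap, 0.638 for summits within 250 bp, 0.409 after joining, and 0.632 to 0.723 without 1 Empty replicate. The share of gained peaks in regions of 3 or more, 22.04%, was in the same order 20.2%, 19.2%, 15.9%, 5.27%, 22.6%, 23.4% and 14.7%, 23.4% to 30.0% without 1 replicate, and 5.89% and 40.4% with joining at 5 and 25 kb. The gained share of chromosome 19, 21.7%, was 25.5% at equal number by fold, 23.9% for 50% overlap, 28.1% for summits, and 23.1% to 41.2% without 1 replicate, the higher value without replicate 2. BAF at gained peaks, 33.3%, was 46.2% and 41.2% at equal number by -log10 p and by fold, 83.9% for 10000 peaks, 32.3% for 50% overlap, 32.5% for summits, 36.3% after joining, 29.8% to 32.8% without 1 replicate and 13.6% for both subunits. The WT peaks absent from both Empty lists at equal number, 39.6%, were 35.1% for 10000 peaks, 46.5% by fold, 40.3% for 50% overlap, 43.0% for summits, 37.98% after joining and 44.3% to 47.5% without 1 replicate. Of the 1000 strongest WT peaks 5.70% were gained, and 7.50% to 9.10% without 1 replicate; the other settings gave values inside its interval. Beyond the settings' own construction the causes were not tested. No paired analysis was possible because the WT library carries no replicate number and is alone. Depth limits weak peaks most: gained peaks rested on a median of 14 fragments.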
